A study of Homo sapiens with 4 samples.

Results

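The response to CoCl2 was described in OVSAYO cells that carried a negative control siRNA. OVSAYO is a human cell line from an ovarian clear cell carcinoma (CCC). The cells were transfected with a non-specific siRNA (NS-si), which was meant to silence no gene, and cultured for 40 h by the sample labels, whereas a figure legend of the study gives a shorter time. They were then left without CoCl2 (NS-si) or given 0.5 mM CoCl2 for 4 h (NS-si → CoCl2). Each condition was measured on 1 single-colour Agilent array, so the comparison rests on 2 of the 4 arrays of the series, chosen by their labels. The other 2 arrays hold cells with siRNA against the transcription factor Sp1, without (Sp1-si) and with CoCl2 (Sp1-si → CoCl2), and serve below as a second pair. All 4 conditions share the cell line and the transfection, and the same legend names a vehicle for the cells that got no CoCl2. Nothing states whether separate cultures were pooled. There is no replicate of any condition, hence no replicate check and no p-value, the number of arrays limits the precision, and a ratio compares 2 arrays.

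Cobalt ions take the place of iron in the prolyl hydroxylases that mark the alpha subunits of hypoxia-inducible factors (HIFs) for destruction. The HIF alpha subunits then accumulate in normal oxygen, pair with ARNT and bind hypoxia response elements near genes for glycolysis, angiogenesis and oxygen sensing. Cobalt is also a heavy metal, and heavy metals are known to engage the metal-responsive factor MTF1, the heat shock factor HSF1 and NRF2, the regulator of antioxidant genes. Clear cell carcinoma of the ovary is an epithelial tumour known for strong HIF-related gene expression.

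Promoter sequences of genes that rose are shown first, because they hold the letters by which these 3 kinds of factor are known to bind. From the HIF target, metallothionein and heat shock lists, the printed windows are those of the 2 members with the highest ratios whose window held the motif of the list. Each window runs from 250 bases before to 50 after the start of the gene, in RefSeq on GRCh38.p14, and is written 5′ to 3′ on the strand of the gene. Capitals mark ACGTG or GCGTG, the core of the hypoxia response element, in the promoters of STC2 (chr5:173328365-173328664, minus strand) and ADM (chr11:10304823-10305122, plus strand).
STC2: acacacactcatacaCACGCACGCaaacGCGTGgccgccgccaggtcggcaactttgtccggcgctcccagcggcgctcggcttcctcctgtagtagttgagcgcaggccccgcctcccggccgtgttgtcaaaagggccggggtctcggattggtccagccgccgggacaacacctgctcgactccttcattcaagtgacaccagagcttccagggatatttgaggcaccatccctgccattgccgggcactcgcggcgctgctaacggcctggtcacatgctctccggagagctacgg
ADM: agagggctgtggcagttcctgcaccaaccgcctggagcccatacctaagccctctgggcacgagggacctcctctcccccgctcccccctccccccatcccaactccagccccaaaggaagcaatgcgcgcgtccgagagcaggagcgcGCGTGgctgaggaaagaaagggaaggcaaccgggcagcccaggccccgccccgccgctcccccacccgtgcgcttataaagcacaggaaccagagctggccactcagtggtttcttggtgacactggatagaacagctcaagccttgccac
In the promoters of MT2A (chr16:56608334-56608633, plus strand) and MT1H (chr16:56669564-56669863, plus strand), capitals mark TGCACNC or TGCGCNC, the core of the metal response element.
MT2A: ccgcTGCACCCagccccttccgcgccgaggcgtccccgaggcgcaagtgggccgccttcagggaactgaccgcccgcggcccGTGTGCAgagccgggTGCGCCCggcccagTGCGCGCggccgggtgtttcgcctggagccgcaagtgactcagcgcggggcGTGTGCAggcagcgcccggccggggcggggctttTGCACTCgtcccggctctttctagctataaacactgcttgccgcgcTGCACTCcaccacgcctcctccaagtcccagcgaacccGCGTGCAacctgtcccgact
MT1H: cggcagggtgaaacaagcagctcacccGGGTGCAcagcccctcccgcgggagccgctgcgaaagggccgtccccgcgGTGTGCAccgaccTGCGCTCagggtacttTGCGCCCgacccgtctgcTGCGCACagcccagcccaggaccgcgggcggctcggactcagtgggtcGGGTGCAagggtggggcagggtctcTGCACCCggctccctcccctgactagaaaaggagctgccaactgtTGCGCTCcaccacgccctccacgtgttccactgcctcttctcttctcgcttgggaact
The capitals in HSPA6 (chr1:161524290-161524589, plus strand) and HSPA1A (chr6:31815293-31815592, plus strand) mark GAANNTTC, a core of the heat shock element.
HSPA6: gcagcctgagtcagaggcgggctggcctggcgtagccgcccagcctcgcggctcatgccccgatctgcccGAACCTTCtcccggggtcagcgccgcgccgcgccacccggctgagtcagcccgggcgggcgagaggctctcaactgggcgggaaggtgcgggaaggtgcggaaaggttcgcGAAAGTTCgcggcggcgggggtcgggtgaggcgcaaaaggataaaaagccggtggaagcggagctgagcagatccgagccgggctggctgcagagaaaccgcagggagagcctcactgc
HSPA1A: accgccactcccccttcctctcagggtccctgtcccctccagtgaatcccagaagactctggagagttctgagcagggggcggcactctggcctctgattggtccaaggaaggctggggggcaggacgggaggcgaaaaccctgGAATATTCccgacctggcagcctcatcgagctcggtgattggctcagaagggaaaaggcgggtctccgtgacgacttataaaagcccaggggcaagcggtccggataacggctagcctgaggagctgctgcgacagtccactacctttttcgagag
Both strands were searched, so a capital run can be the reverse complement of the letters given. STC2 held 3 matches, ADM 1, MT2A 8, MT1H 8, HSPA6 2 and HSPA1A 1. A match is a description of the letters and not a site of binding.

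Of 41000 probes on each array, 31313 were well above background on both arrays, 751 only without CoCl2 and 811 only with it. The probes measured on both arrays represented 14627 genes. A ratio is the difference of the log2 signals after the 75th percentile of each array was subtracted, and a gene was called raised or lowered at a 2-fold difference, a log2 ratio of at least 1 or at most -1. By this rule 555 genes were raised (3.79% of those measured) and 471 were lowered (3.22%). Without scaling between the arrays these counts were 353 and 865, so that raised genes made up 29.0% of the calls instead of 54.1%, since the 75th percentile lay at a signal of 1143 without and 977 with CoCl2. That setting moved the median of all genes by -0.23, and ratios below are relative to the 75th percentile. In all, 74.3% of genes lay within 0.5 of 0. At least 4-fold higher were 87 genes, and 34 were at least 4-fold lower. Spots of the 233 probes printed 10 times gave a median SD of the log2 ratio of 0.080, which ran from 0.17 in the dimmest 47 of these probes to 0.061 in the brightest 47. This SD describes the spots of 1 pair of arrays and not biological spread. In bulk RNA, a change in some of the cells and a smaller change in all of them cannot be told apart.

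**Figure D1:**
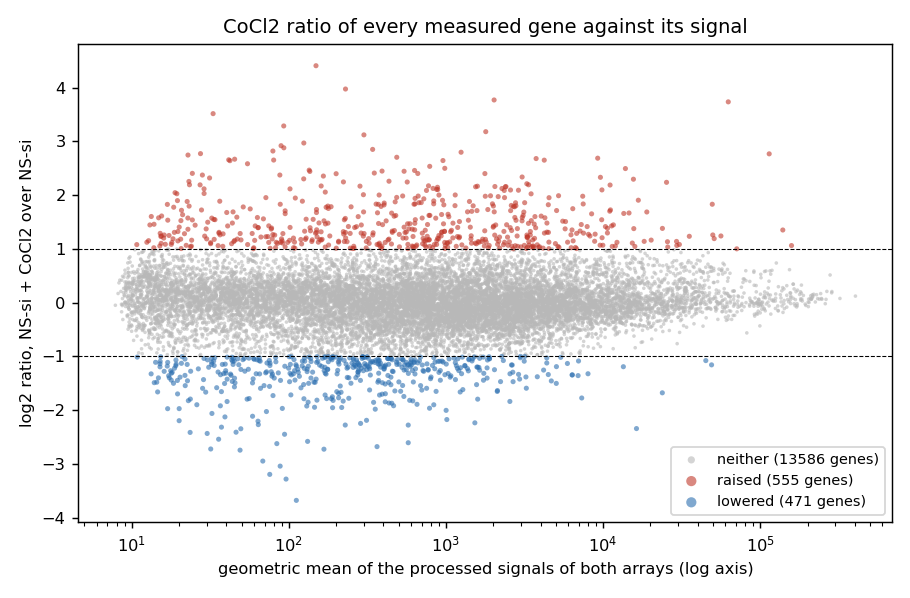
Each point is 1 gene, with the geometric mean of its processed signals on both arrays on the x axis (log axis) and its log2 ratio of NS-si → CoCl2 to NS-si on the y axis; dashed lines mark 2-fold. Raised genes lie at all signals, whereas lowered genes thin out among the brightest; 15 measured genes are not drawn.

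The calls were spread unevenly over signal. With the genes cut by signal into 4 groups of equal size, the raised share was 4.02%, 3.83%, 3.88% and 3.45% from the dimmest to the brightest group. The lowered share was 4.51%, 5.33%, 2.24% and 0.793% over the same groups. Lowered genes were thus found mostly among dim and middling probes. Their share was highest in the second group, at signals from 126 to 692. Among the 10-spot probes, the median SD between spots was 0.083 at signals from 109 to 493 and 0.17 below that. The part of this SD in the calls was not tested. Where a gene had several measured probes, they did not always agree. Of 202 raised genes with at least 2 probes, 118 were past the threshold with every probe, and 19 had a probe on the other side of 0. Of 139 lowered genes with at least 2 probes, 61 were past it with every probe, and 10 had a probe on the other side of 0.

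The highest ratio was that of HSPA6. This gene, which encodes a stress-inducible HSP70 chaperone, had a signal of 35.0 in NS-si and 634 in NS-si → CoCl2 cells, a log2 ratio of 4.41 (21.2-fold). RIMKLA, which joins glutamate to N-acetylaspartate, went from 62.6 to 840, a log2 ratio of 3.97. Its other probe gave 3.45. PFKFB4, an enzyme that sets the level of the glycolytic activator fructose 2,6-bisphosphate, went from 593 to 6912, a log2 ratio of 3.77 (13.6-fold). These 3 genes rose from low or middling signals. HMOX1, the inducible heme oxygenase that breaks down heme, rose from an already bright 18562 to 211173, a log2 ratio of 3.73 (13.3-fold). STS, the steroid sulfatase, was dim in NS-si cells at 10.54 and reached 103, a log2 ratio of 3.51. SPDYA, an activator of cyclin-dependent kinases, went from 32.1 to 268 (3.29), and its other probe gave 3.13. Both probes of SPDYA thus gave a rise of similar size. DOK3, an adaptor of immune receptor signalling, rose from 644 to 4985 (log2 ratio 3.18), with 1.54 for its other probe. PIM1, a serine/threonine kinase, rose from 137 to 848 (2.85). MAFF, a small MAF protein that partners NRF2, rose from 512 to 3042 (2.80). The remaining genes of the highest 15 were STC2, ISM2, TCAF2, the decoy TRAIL receptor TNFRSF10D, the integrin activator FERMT3 and GLB1L2, with log2 ratios from 3.12 for STC2 down to 2.77 for GLB1L2. Some of these ratios depend on the background correction. With normexp, a correction that shrinks the ratios of dim probes, HSPA6 gave 2.89. HMOX1 (3.75), PFKFB4 (3.59), RIMKLA (3.12) and DOK3 (3.03) then lay above HSPA6, so its first rank depends on the setting. STS gave 1.45, FERMT3 1.70 and GLB1L2 1.07, and all 15 stayed past 2-fold. The plot of the 15 highest and 15 lowest ratios shows that the 2 sides differ in brightness.

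**Figure D2:**
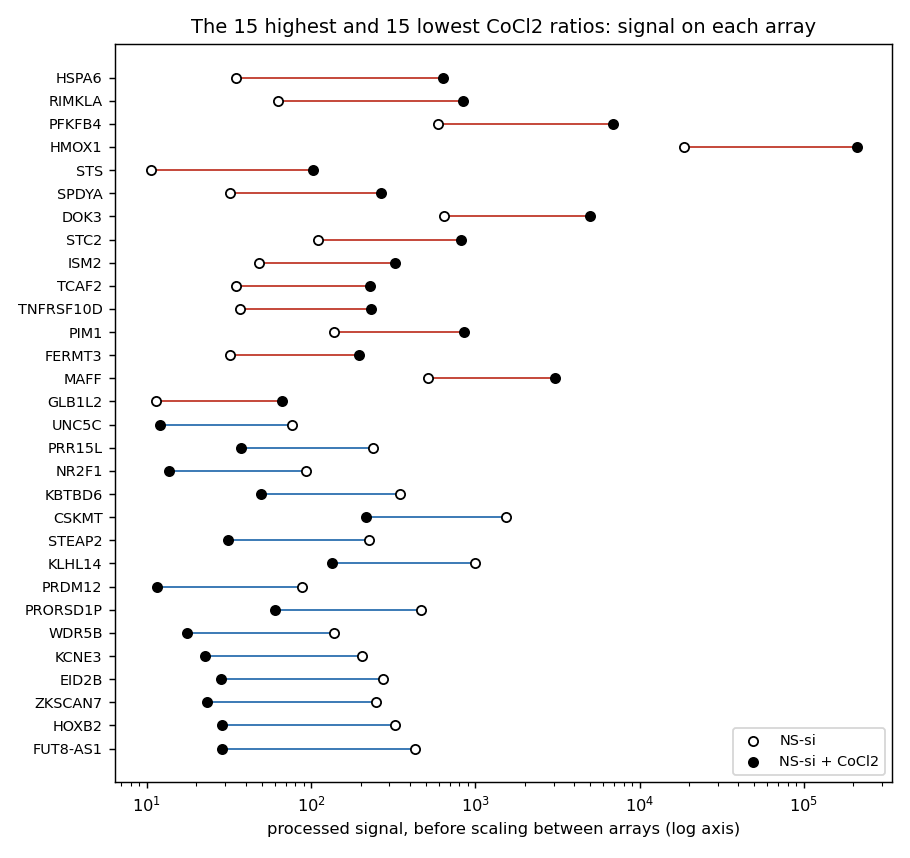
Processed signal before scaling (x axis, log axis) of the genes with the 15 highest and 15 lowest ratios, with an open circle for NS-si, a filled circle for NS-si → CoCl2, and red lines for higher and blue lines for lower. HMOX1 is the brightest, from 18562 to 211173, and the lowered gene with the highest NS-si signal is CSKMT, at 1535.

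Several genes rose with every probe. ATF3, a stress-induced transcription factor, rose from 1601 to 8770 (log2 ratio 2.68), with 2.75 for its other probe. KLHL21, an adaptor of a ubiquitin ligase used in mitosis, rose from 6320 to 30430 (2.49 and 2.54). TICRR, a regulator of the start of DNA replication, rose from 1048 to 4003, with 2.16 and 2.21. The genes of this paragraph were chosen for a high ratio with every probe, so agreement of their probes is partly given by that choice. Within the pairs of ATF3, KLHL21 and TICRR the probes differed by less than 0.080, the median SD between spots. ENDOU, an endoribonuclease, rose from 214 to 877 (2.26), with 2.70 for its other probe. NDRG1, a hypoxia-responsive growth regulator, rose from a bright 12616 to 50866 (2.24), with 2.69 for its other probe.

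Of the 26 measured HIF target genes, 22 rose at least 2-fold (84.6%, against 3.79% of all genes), none fell, and the median log2 ratio was 1.92 against 0.0029 over all genes. Among secreted factors, STC2, stanniocalcin 2, went from a signal of 110 to 819 (3.12). ADM, the vasodilator adrenomedullin, went from 47271 to 275160 (2.77), the brightest of the list with CoCl2. VEGFA, the main angiogenic factor, went from 1469 to 6344 (2.34). The folds of these 3 were 8.69, 6.81 and 5.05. RAB20, a small GTPase, was dim in NS-si cells and went from 63.2 to 293 (2.44). HILPDA, a protein of lipid droplets, went from 7613 to 31955 (2.30). BNIP3, a mitophagy receptor, went from 6626 to 18721 (1.72), and its relative BNIP3L went from 1131 to 3454 (1.84). Not all members moved. FAM162A (0.69), DDIT4 (0.87) and CITED2 (0.06) stayed short of 2-fold, and RIOX2, a chromatin-bound hydroxylase, went from 1345 to 709 (-0.70). Another 4 listed genes could not be compared. CA9, the carbonic anhydrase widely used to mark hypoxia, and LOX, lysyl oxidase, were not well above background on either array. ANGPTL4, with signals of 6.02 and 14.7, and RORA, with 2.69 and 26.8, were well above background with CoCl2 only.

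Oxygen sensors and related enzymes that use 2-oxoglutarate and iron had a median ratio of 0.76 over 29 measured genes, of which 13 were raised (against 3.79% of all genes) and none lowered. Without scaling 7 of the 13 stayed raised and 1 gene of the list was lowered. EGLN1, EGLN3, P4HA1, P4HA2 and KDM3A are also on the HIF target list and were counted as raised there, so the lists overlap. EGLN3, a prolyl hydroxylase that acts on HIF, went from 454 to 1717 (2.14), and EGLN1, the main such enzyme in most cells, from 5622 to 11594 (1.27). EGLN2, the third of these hydroxylases, went from 755 to 1091 (0.76), short of 2-fold. The collagen prolyl hydroxylases P4HA2 (1.98) and P4HA1 (1.03) were raised too. Histone demethylases made up most of the rest. KDM3A, which removes methyl groups from lysine 9 of histone H3, went from 1224 to 4655 (2.15), and its 3 probes lay between 2.15 and 2.25. JMJD6, a lysyl hydroxylase of splicing factors, went from 1233 to 4476 (2.09). KDM7A (1.47), KDM2B (1.33), KDM2A (1.20), JMJD1C (1.17), KDM4C (1.14), KDM6B (1.02) and the RNA demethylase ALKBH5 (1.08) passed 2-fold as well. At the low end TET1, which oxidises methylated cytosine in DNA, went from 206 to 93.6 (-0.91), and KDM4D, at signals of 27.1 and 14.3, gave -0.70. KDM5B, KDM5C and PHF8 lay between 0.18 and 0.30.

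Glucose uptake and glycolysis had a median of 0.73 over 22 genes, with 8 raised (against 3.79% of all genes, and 5 without scaling) and none lowered. HK2, the inducible hexokinase, went from 9364 to 29982 (1.90). PDK1, which blocks entry of pyruvate into mitochondria, went from 1506 to 4506 (1.81). PFKFB3, the relative of PFKFB4, went from 6611 to 18375 (1.70). The glucose transporter SLC2A1 went from 39563 to 79887 (1.24). Short of 2-fold were LDHA, lactate dehydrogenase A (0.78), ENO1, enolase (0.48), and PKM, pyruvate kinase (0.47). The lactate exporter SLC16A3 gave -0.33 and the muscle phosphofructokinase PFKM -0.46. SLC2A3 and ENO2 were not well above background on either array. PDK4, another pyruvate dehydrogenase kinase and not on this list, was lowered, from 3583 to 651 (-2.24), with -2.41 for its other probe. The TCA cycle list had 24 measured genes, none past 2-fold, and a median of -0.09, from 0.33 for pyruvate carboxylase (PC) to -0.59 for fumarase (FH).

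Metallothioneins are small proteins that bind zinc and other metals. Of 12 measured genes of the metallothionein and zinc export list, 7 were raised (against 3.79% of all genes) and none lowered, with a median of 1.28. MT2A went from 5613 to 21857 (2.19), and its 3 probes lay between 2.04 and 2.19. MT1E went from 359 to 1092 (1.83), and MT1X from 1591 to 4677 (1.78). MT1H gave 1.79 with its brightest probe and 0.89 with the other. The other raised members were MT1G (1.73), MT1B (1.42) and MT1F (1.15). Outside these 7, MT1A was bright on both arrays, at 20844 and 18846 (0.08), MT1M was dim, at 17.9 and 13.5 (-0.18), and the zinc exporter SLC30A1, a known target of MTF1, went from 9188 to 9582 (0.29). Metallothionein transcripts are nearly identical, and how much of a probe's signal came from other members was not tested. Iron handling genes gave a median of 0.0045 over 16 genes. The transferrin receptor TFRC gave 0.33, and the ferritin chains FTH1 and FTL gave 0.12 and -0.01. The list had 1 lowered gene (6.25%, against 3.22% of all genes), the metalloreductase STEAP2, which went from 225 to 31.2 (-2.62).

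Heat shock proteins and co-chaperones had a median of 0.56 over 23 genes, with 8 raised (against 3.79% of all genes) and none lowered. Without scaling 6 of the 8 stayed raised and 1 gene of the list was lowered. Beside HSPA6, the HSP40 co-chaperones DNAJB4 and DNAJB1 rose most, DNAJB4 from 447 to 2159 (2.50) and DNAJB1 from 2490 to 8235 (1.95). HSPA1A, the classical inducible HSP70, went from 1542 to 4315 (1.71). It has a near-identical neighbour, HSPA1B, whose transcript its probe may not tell apart. BAG3 (1.62), HSPH1 (1.38), HSPA1L (1.09) and CHORDC1 (1.03) completed the raised members. The constitutive HSPA8, at signals of 224313 and 213691, gave 0.16, and the mitochondrial chaperonins HSPD1 and HSPE1 gave 0.32 and 0.21. The factor HSF1 gave 0.26, and HSF2 went from 1694 to 818 (-0.82). HSPB8 was well above background with CoCl2 only, at a signal of 11.8.

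NRF2 targets had a median of 0.45 over 23 genes, with 7 raised and none lowered. For this and the next 3 lists the share over all genes is 3.79% raised. After HMOX1, the highest were both subunits of glutamate-cysteine ligase, which makes glutathione. GCLC went from 3938 to 21673 (2.69) and GCLM from 3022 to 8468 (1.71). TXNRD1, thioredoxin reductase 1, went from 1233 to 4705 (2.16). MAFG (1.38), AKR1B10 (1.34) and SRXN1 (1.30) were raised too. The classical target NQO1 went from 2247 to 2502 (0.38), SLC7A11, the cystine transporter, from 3837 to 4479 (0.45), and NFE2L2, the gene of NRF2, gave 0.03. Of 25 genes of the ATF4 and unfolded protein response list, 5 were raised, with a median of 0.24. These were ATF3, PPP1R15A, the phosphatase subunit that restores translation (from 291 to 1368, 2.46), the pseudokinase TRIB3 (1.83), CEBPB (1.51) and DNAJB9 (1.38). The chaperone HSPA5 gave 0.22, the asparagine synthetase ASNS 0.11 and DDIT3, which encodes CHOP, 0.50. SESN2 had the lowest ratio, -0.62. Autophagy and lysosome genes had a median of 0.31 over 23 genes, with 2 raised, the initiating kinase ULK1 (from 4746 to 11107, 1.45) and GABARAPL1 (1.06). Cholesterol synthesis gave 0.24 over 24 genes, with 2 raised, among them the sterol carrier STARD4 (1.12). The autophagy and cholesterol lists had 1 raised gene each without scaling.

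Immediate early genes, which respond to a stimulus without new protein synthesis, were split. Of 28 measured, 14 were raised (against 3.79% of all genes) and 1 was lowered (against 3.22%), with a median of 1.06. Without scaling 11 were raised and 3 lowered. JUN, a subunit of AP-1, went from 5141 to 18796 (2.10), with an SD between its 10 spots of 0.043. DUSP5 and DUSP1, phosphatases that switch off MAP kinases, gave 2.09 and 1.98. FOS (1.62), FOSB (1.77), JUNB (1.65), FOSL1 (1.35) and FOSL2 (1.22), the other AP-1 subunits of the list, were all raised. In contrast, EGR1, a zinc finger factor often induced with FOS, went from 2225 to 1057 (-0.85), and BTG2 from 5787 to 2530 (-0.97). Without scaling EGR1 gave -1.07 and BTG2 -1.19. CCN1, a matricellular protein, was lowered from a very bright 79178 to 30348 (-1.16), with its 3 probes between -1.16 and -1.03. EGR2, EGR3 and NR4A3 were not well above background on either array. MYC (0.29) and IER2 (0.28) stayed short of 2-fold.

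NFkB targets and chemokines moved in both directions, with 5 raised and 2 lowered of 16. Over all genes the shares were 3.79% raised and 3.22% lowered. The median of the list was 0.11, which was below 0 without scaling. TNFAIP3, an inhibitor of NFkB, went from 222 to 605 (1.67), and BIRC3, an inhibitor of apoptosis, from 5244 to 11954 (1.41). LIF, a cytokine of the IL-6 family, went from 6855 to 15621 (1.41). The chemokines CXCL8 (from 12.7 to 40.0, 1.88) and CCL20 (from 33.5 to 96.0, 1.74) were raised from dim signals, but gave 0.60 and 0.91 with normexp, a background correction that pulls dim ratios towards 0. With it the list had 3 raised and 1 lowered. CXCL2 was lowered from 620 to 172 (-1.62), with -0.98 for its other probe, and IL6 from 695 to 268 (-1.15). CXCL1, the neighbour of CXCL2 in function, went from 1566 to 674 (-0.99), just short of 2-fold. ICAM1, VCAM1 and CCL2 were not well above background on either array, and IL1A (6.22 and 30.2) and IL1B (8.10 and 8.98) were so with CoCl2 only.

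The lowest ratio was that of FUT8-AS1. This antisense RNA had a signal of 432 in NS-si and 28.8 in NS-si → CoCl2 cells, a log2 ratio of -3.68 (12.8-fold lower), but its other probe gave only -0.69. HOXB2, a homeobox factor of body patterning, went from 324 to 28.5 (-3.28), and its other probe gave -0.40. ZKSCAN7, a zinc finger protein, went from 247 to 23.1 (-3.19), with 1 probe. The leading values of the first 2 genes thus rest on 1 probe each. EID2B, a repressor of differentiation, went from 273 to 28.4 (-3.04). KCNE3, an accessory subunit of potassium channels, went from 205 to 22.7 (-2.95). KLHL14, a BTB-kelch protein, went from a brighter 996 to 133 (-2.68). CSKMT, the methyltransferase of citrate synthase, was the brightest of the lowest 15 and went from 1535 to 216 (-2.61). NR2F1, the orphan receptor COUP-TF1, went from 93.2 to 13.7 (-2.54), and UNC5C, a netrin receptor, from 75.9 to 12.0 (-2.43), with -0.34 for its other probe. The remaining genes of the lowest 15 were WDR5B, PRORSD1P, PRDM12, STEAP2, KBTBD6 and PRR15L, between -2.74 and -2.45. With normexp, NR2F1 (-0.85), PRDM12 (-0.77) and UNC5C (-0.67) fell short of 2-fold.

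Genes lowered with every probe are less open to the fault of a single probe. Beside PDK4, they included DYRK3, a kinase that dissolves condensates of stressed cells, which went from 152 to 26.9 (-2.27 and -2.35). CDH6, a cadherin of kidney and Müllerian epithelium, went from 721 to 135 (-2.19 and -2.27). PCDH17, a protocadherin, went from 897 to 210 (-1.87 and -2.38). The differences between the probes of these genes were small beside the ratios, which is partly given by their choice for low ratios with every probe. SOX5 went from 132 to 26.1 (-2.11 and -1.84). CDCA7, a MYC-responsive gene of dividing cells, went from 5216 to 1248 (-1.84 and -1.93), the brightest of these genes in NS-si cells. PPFIBP2 (-1.95 and -1.86), the guanylate cyclase subunit GUCY1A1 (-1.87 and -1.83), the fucosyltransferase FUT9 (-1.83 and -1.65) and CCDC150 (-1.45 and -1.58) completed the 10.

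HOX genes, chosen as a list after HOXB2 was seen, had 7 of 22 measured members lowered (31.8%, against 3.22% of all genes) and 1 raised. HOXB2 is 1 of the 7, so the share was partly set by the choice of the list. The median was -0.72, which stayed below 0 under every setting tried. HOXB6 was bright and went from 46066 to 12315 (-1.68). HOXB3 went from 404 to 89.2 (-1.95), with 0.34 for a dim second probe, and HOXD3 from 842 to 200 (-1.85). HOXA9 (-1.56), HOXB5 (-1.27) and HOXD8 (-1.25) were lowered too. Members of the A, B and D clusters were thus among the lowered genes, while HOXA3, the brightest, went from 72445 to 84080 (0.44) with 1 probe and from 1227 to 478 (-1.13) with the other. With normexp 4 of the 7 stayed lowered. HOXD10 was the raised member, from a dim 8.55 to 19.9 (1.44), and gave 0.44 with normexp. HOXA13 is outside the 22, since it passed background with CoCl2 only, at signals of 3.72 and 169. Its bound was at least 26.7-fold higher. Of 48 cadherins and protocadherins, also chosen after values were seen, 4 were lowered (8.33%, against 3.22% of all genes) and none raised. They were CDH7 (from 121 to 20.3, -2.35), PCDH20 (from 109 to 26.9, -1.80), and CDH6 and PCDH17, which were already named above. The second probe of CDH7 was dim and gave 0.18, and CDH7 and PCDH20 fell short of 2-fold with normexp. The epithelial cadherin CDH1 gave 0.34. Among 16 SOX genes, a list also chosen after values were seen, SOX2 (-1.48), SOX5 and SOX6 (-1.05) were lowered (18.8%, against 3.22% of all genes). SOX9 was the only raised member (6.25%, against 3.79% of all genes), from 19.6 to 47.3. Of these SOX genes, SOX2 alone passed 2-fold with normexp.

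Long noncoding RNAs were singled out after values were seen, and the difference between the biotypes was not tested. By RefSeq biotype, 32 of 245 lncRNA genes were lowered (13.1%) and 5 raised, against 3.07% lowered and 3.82% raised of 14116 protein-coding genes. Their probes were dim, with a median signal of 102 against 716. Within the dimmest of the 4 signal groups, 12.3% of 130 lncRNA genes and 4.24% of protein-coding genes were lowered, and in the next group 13 of 59 lncRNA genes and 5.08% of protein-coding genes. NEAT1, the scaffold of paraspeckles, went from 14619 to 3656 (-1.77). LINC01003 (from 1068 to 272, -1.75) and LARRPM (from 2327 to 441, -2.18) were lowered from middling signals. Among the raised lncRNA genes were MIR22HG, the host gene of miR-22 (from 2578 to 7786, 1.82), and IDI2-AS1 (from 251 to 1167, 2.44). With normexp 14 of these 32 stayed lowered, against 202 of the 471 lowered genes of all kinds, and no other lncRNA gene was lowered. That left 14 of 245 lncRNA genes lowered, beside 205 of all 14627 genes. The median of the lncRNA genes went from -0.08 to 0.05 with normexp. Among protein-coding genes, the span of the gene differed little between raised and other genes, with medians of 25.9 kb and 28.2 kb, and was 20.2 kb for lowered genes. Of genes under 5 kb, 4.52% were lowered, against 2.46% of those from 20 to 100 kb.

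Genes of cell division were low as lists, with few past 2-fold. Of 29 mitosis genes, 25 were below 0, with a median of -0.52 against 0.0029 over all genes. Only 1 was lowered (3.45%), near the 3.22% of all genes. None was lowered with normexp and 6 were without scaling. CENPE, a kinesin of the kinetochore, went from 335 to 130 (-1.14), the kinase gene CDK1 from 1453 to 664 (-0.90), and the cyclin CCNB1 from 7347 to 3647 (-0.78). BIRC5, survivin, was at the other end, from 10712 to 10896 (0.25). Of 32 genes of DNA replication and the G1/S transition, 4 were lowered (12.5%, against 3.22% of all genes) and 26 were below 0, with a median of -0.38. The 4 were the late cyclin CCNE2 (from 30.9 to 11.3, -1.22), the replication factor MCM10 (from 179 to 68.7, -1.15), the clamp loader subunit RFC3 (-1.05) and POLE2, a subunit of DNA polymerase epsilon (-1.04). None of them stayed lowered with normexp, where CCNE2 gave -0.15, and 6 genes of the list were lowered without scaling. The sliding clamp PCNA went from 5142 to 2426 (-0.86), while ORC1 (0.65), MCM7 (0.35) and CDT1 (0.33) were above 0. Histone genes, a list chosen after values were seen, had 60 of 71 members below 0 and a median of -0.21, with none past 2-fold.

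Of 76 mitochondrial ribosomal protein genes, 71 were below 0, with a median of -0.31 and a range from -0.82 for MRPL57 to 0.40 for MRPS6. None reached 2-fold. The 81 cytosolic ribosomal protein genes gave a median of -0.02, between -0.41 and 0.30. The 2 lists, both chosen after values were seen, differ in brightness, with median signals of 5524 and 124792, so that their separation was not compared at like signal. Ribosome biogenesis (32 genes, median -0.0031) and the aminoacyl-tRNA synthetases (19 genes, -0.13) had 1 gene between them past 2-fold, RRS1, which went from 6764 to 2835 (-1.03).

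Interferon-stimulated genes had 3 lowered (against 3.22% of all genes) and none raised of 24, with a median of -0.13. None of the 3 stayed lowered with normexp, and 6 were lowered without scaling. IFIT1 went from 387 to 142 (-1.22), IFIT2 from 458 to 174 (-1.17) and IFIT5 from 135 to 45.8 (-1.33), which are neighbouring antiviral genes of 1 family. IFIT3 went from 119 to 53.3 (-0.93). IRF7 gave 0.55 and ISG15 -0.14. Targets of p53 had 3 raised (against 3.79% of all genes) and none lowered of 22. Their median was -0.15, which was above 0 when the probes of each gene were averaged. The raised genes were GADD45B (from 1043 to 3535, 1.99), PLK3 (1.35) and PMAIP1 (1.02). PMAIP1 gave 0.80 without scaling and 0.95 with normexp, and in both settings 2 of the 3 stayed raised. The classical targets CDKN1A (-0.27) and MDM2 (-0.17) were near 0. In the BMP, TGF-beta and Notch list (22 genes, median 0.12, below 0 without scaling), the inhibitory SMAD7 rose from 115 to 274 (1.48) and PMEPA1, another TGF-beta inhibitor, from 4362 to 8943 (1.26). All 4 ID genes, inhibitors of basic helix-loop-helix factors, were below 0. ID3 went from 2605 to 969 (-1.20), ID2 from 10503 to 4713 (-0.93), ID4 from 4125 to 1879 (-0.91) and ID1 from 41700 to 21009 (-0.76). Of these only ID3 passed 2-fold. Without scaling ID2 (-1.16) and ID4 (-1.13) passed it as well, and 5 genes of the list were lowered.

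The 15 reference genes gave a median of 0.02, with a range from -0.52 to 0.51, and none reached 2-fold. Among 28 long genes of transcription and chromatin regulators, only CHD2 (from 1730 to 3219, 1.12) passed 2-fold. All 8 markers of clear cell carcinoma and all 7 epithelial markers were measured on both arrays, and none was called. Osteopontin (SPP1) had signals of 287871 and 283977, and the adhesion molecule EPCAM 121009 and 108957. Of markers of other cell types, 4 of 8 for fibroblasts and smooth muscle, 2 of 6 for endothelium and 5 of 7 for leukocytes were measured on both arrays, and none of them was called. The highest of these signals were 766 and 558 for LUM and 720 and 785 for CD68. The leukocyte antigen PTPRC, the endothelial PECAM1, CDH5 and KDR, and the fibroblast genes COL3A1, PDGFRB and FAP were not well above background on either array.

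Genes on which only 1 of the arrays passed background have a bound in place of a ratio. For the dim side the faintest signal that passed background on that array was used, or the probe's own where that was higher. Of 409 probes with a symbol that passed with CoCl2 only, 112 were at least 2-fold higher (111 genes). HOXA13 was at least 26.7-fold higher with CoCl2, at a signal of 169, and SIGLEC1, a macrophage lectin, at least 18.0-fold, at 114. DPYSL4 (at least 14.0-fold) and WDR17 (at least 13.6-fold) followed, and OVOL1, an epithelial zinc finger factor, was at least 12.9-fold higher, with a log2 ratio of 2.65 for its other probe. Of 357 probes that passed without CoCl2 only, 94 were at least 2-fold lower (92 genes). FGD5, an exchange factor of CDC42, was at least 23.3-fold lower from a signal of 189, and KCNAB1, a potassium channel subunit, at least 18.5-fold from 150. GREM1, a BMP antagonist, was at least 9.52-fold lower and PCDH19 at least 8.34-fold. ATXN7L1 was at least 13.2-fold lower with this probe, but its other probe gave -0.42. These bounds rest on single spots. In Sp1-si cells the probes of SIGLEC1 and DPYSL4, and of all 5 lowered genes named here, were not well above background with or without CoCl2, and that of WDR17 passed background without CoCl2 only. The HOXA13 probe passed on both Sp1-si arrays, and OVOL1 with CoCl2 only.

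Promoter windows were found for 80.7% of raised, 82.6% of lowered and 82.5% of other genes outside chromosome 8. The AP-1 motif TGANTCA was present in 8.53% of the 434 windows of raised genes, 4.28% of the 374 of lowered genes and 4.75% of the 10839 others. The TATA box letters TATAAA gave 12.9%, 6.42% and 6.94% in the same order. The E-box CACGTG, which contains the ACGTG form of the hypoxia response element, gave 14.1%, 9.63% and 9.71%. The raised class had the highest share for every motif drawn below, and not for these 3 alone. Its lead was small for some, as for the ATF4 element core at 2.07%, 0.802% and 1.94%. The differences were not tested. The GC box GGGCGG, the letters that Sp1 is known to bind, was present in 70.0% of raised, 55.9% of lowered and 66.2% of other windows. Median GC content ran the same way, at 67.0%, 63.0% and 64.7%, and its part in the GC box shares was not tested. ACGTG alone gave 29.7%, 21.4% and 25.5%. GCGTG alone, the form marked in STC2 and ADM and not drawn by itself, was least frequent in raised genes, at 45.9%, 50.3% and 48.1%. ACGTG or GCGTG together gave 61.5%, 60.4% and 60.3%. For comparison, 48.4% of all 35116 windows of the table held ACGTG or GCGTG, 45.0% the GC box, 11.5% TATAAA, 7.71% TGANTCA and 7.26% CACGTG.

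Among the lists, ACGTG or GCGTG was found in 15 of 19 HIF target windows (78.9%), and ACGTG alone in 12 (63.2%). EGLN3, TMEM45A, P4HA2 and MXI1, all raised, held neither form in this window. The metal response core TGCACNC or TGCGCNC was found in 5 of 6 windows of the metallothionein list, with 8 matches each in MT2A and MT1H. Over all genes its shares were 39.4% of raised, 38.2% of lowered and 37.2% of other windows. GAANNTTC was found in 8 of 21 heat shock windows (38.1%), against 6.22% of raised, 3.48% of lowered and 4.69% of other windows. DNAJB1 and BAG3, both raised, had no match in this window, while HSPA8, which did not reach 2-fold, had 2.

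**Figure D3:**
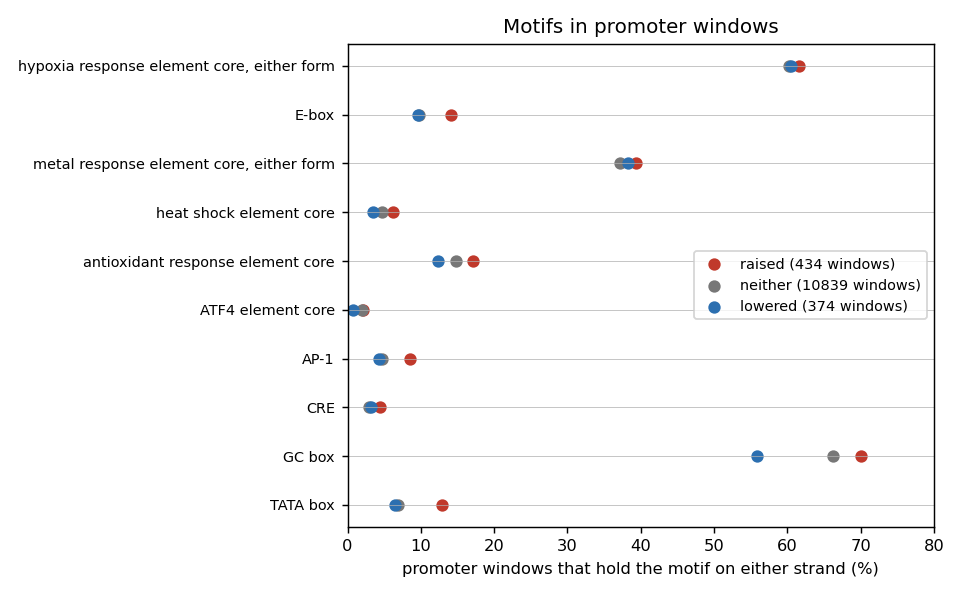
Share of promoter windows that hold each motif on either strand (x axis, percent) for 434 raised genes, 374 lowered genes and 10839 others, 1 window per gene. The raised genes lie to the right of both other classes for every motif drawn, and the lowered genes lie lowest for the GC box at 55.9%.

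The same treatment was given to Sp1-si cells, a pair of arrays that shares no array with the NS-si pair and differs from it by the siRNA. Of 535 genes raised in NS-si cells and measured in both pairs, 505 were above 0 in the Sp1-si pair and 307 were raised there (57.4%, against 3.35% of all genes in that pair), with a median of 1.12. Of 444 lowered genes, 430 were below 0 and 198 were lowered (44.6%, against 3.77%), with a median of -0.94. Of the 87 genes at least 4-fold higher in NS-si cells, 79 were measured in both pairs, and 73 of these were raised in the Sp1-si pair. Of the 34 at least 4-fold lower, 33 were measured in both pairs, and 28 of these were lowered there. HSPA6 gave 7.22 there, PFKFB4 4.25 and HOXB2 -2.39. By list, the median of NS-si cells stood beside that of Sp1-si cells at 1.92 and 2.01 for HIF targets, 1.28 and 2.34 for metallothioneins, 0.56 and 0.69 for heat shock genes, and 1.06 and 0.56 for immediate early genes. For the lowered groups they were -0.52 and -0.25 for mitosis, -0.72 and -0.28 for HOX genes, and -0.31 and -0.27 for mitochondrial ribosomal proteins. The ID genes were near 0 in Sp1-si cells, with ID3 at 0.12, ID2 at 0.01, ID4 at -0.13 and ID1 at 0.16. Of lncRNA genes, 14.1% of 227 were lowered in the Sp1-si pair, against 3.60% of protein-coding genes. With 1 array per condition, differences between the pairs were not tested.

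**Figure D4:**
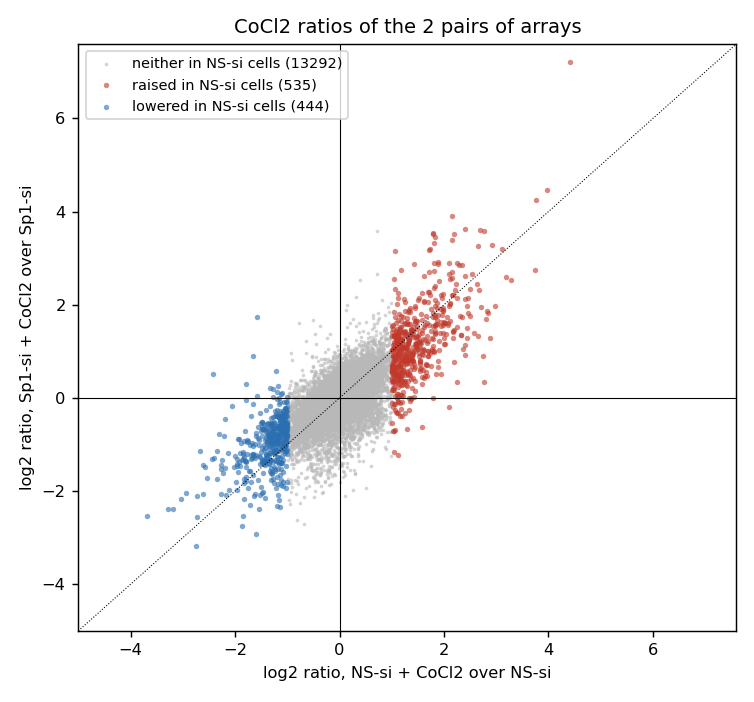
Each point is a gene measured in both pairs, with its log2 ratio of NS-si → CoCl2 to NS-si on the x axis and of Sp1-si → CoCl2 to Sp1-si on the y axis; red and blue mark genes raised and lowered in NS-si cells, and the dotted line marks equal ratios. Of the red points 505 of 535 lie above 0, and of the blue points 430 of 444 lie below 0; 13 measured genes are not drawn.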

How the data were processed

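RNA of OVSAYO cells was measured on single-colour Agilent arrays. The intensities are the processed signals that the scanner software (Agilent Feature Extraction 10.5.1.1, per the file headers) wrote after subtracting the background and removing spatial trends, deposited by the authors without normalization between the arrays. The deposited value table of the authors holds intensities equal to these signals times 1 constant per array, and served as an alternative.

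Spots flagged as outliers were dropped, log2 signals of non-control spots were centred on the 75th percentile of the array, and spots of a probe were averaged. A probe counted as well above background where at least 50% of its spots were. Symbols came from RefSeq accessions, which named 26222 probes. A gene was represented by its brightest probe measured on both arrays. A 2-fold difference counted as raised or lowered. Named are the 15 highest and 15 lowest ratios, the 10 at each end by agreeing probes, the 3 highest and 3 lowest members of each list, and the 10 highest bounds, with list members outside this rule named after their values were seen. The comparison, the gene lists and the rule were chosen with earlier results of these data known. Promoter windows were the RefSeq ones, the first listed per gene.

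Simulated data had 100 probes set 4-fold higher and 100 set 4-fold lower. Among 32064 probes, the counting recovered 100 of each and called 0 others. The planted changes lay past the 2-fold threshold by design, so this run checks the counting only. It gives no rate of false calls for the real arrays, which have no replicates. Alternatives were other scalings, filters, thresholds, the mean over probes and a normexp correction of the median signals with an offset of 50, chosen after seeing that the files hold no mean signals. Python 3.11.15, numpy 2.4.6, pandas 2.3.3, matplotlib 3.10.9, R 4.3.3 and limma 3.58.1 were used. Some results are not reported here.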

Additional observations from a re-analysis of the deposited data

Results flagged for a closer look

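In 3 genes CoCl2 gave a change of 2-fold or more in one direction in NS-si cells and in the other direction in Sp1-si cells, a difference that was not tested. FRMD4A went from 2714 to 4768 in NS-si cells (1.04) but gave -1.16 after Sp1 silencing, which differs by -2.20, and its other probe gave -1.06 in NS-si cells. LRRC2 was dim, from 54.6 to 101 in NS-si cells (1.12), and gave -1.23 after Sp1 silencing, which differs by -2.35. REXO1, with signals of 65.0 and 18.6 in NS-si cells, gave -1.58 there and 1.73 after Sp1 silencing, which differs by 3.32. All 3 values compare single arrays.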

How the results depend on the processing

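Against 555 raised and 471 lowered genes, the counts were 353 and 865 without scaling, 359 and 205 with normexp on the median signals, 976 and 737 with no filter on dim probes, 186 and 101 at a threshold of 3-fold, and 1547 and 1442 at 1.5-fold. Normexp kept 354 of the raised and 202 of the lowered genes. The other settings, which were median scaling, the percentile over probes measured on both arrays, quantile normalization, the authors' value table, the mean over all probes, outlier spots kept and a minimum signal of 50, gave from 474 to 561 raised and from 426 to 571 lowered genes. No called median of a list changed sign under any setting. Of the 1026 called genes, 4 changed sign under some setting, of which FRMD4A alone is named here, at -0.01 with the mean over its probes. The median of the HIF targets ran from 1.69 to 1.95, that of the metallothioneins from 1.06 to 1.42, that of mitosis from -0.75 to -0.44 and that of HOX genes from -0.94 to -0.31. Medians near 0, such as those of the reference, iron and NFkB lists, changed sign without scaling. Lowered genes lay mostly among dim and middling probes, and the part of background in their ratios was not tested. No paired analysis was possible because each condition has 1 array, and for the same reason no array could be left out. Normexp on the mean signals was not run.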

Other observations

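Gene families were also taken from the stems of the symbols, which gave 70 families with at least 20 measured genes. Kelch-like genes (KLHL), most of them adaptors of cullin ubiquitin ligases, moved both ways, with 4 of 27 raised (14.8%, against 3.79% of all genes) and 3 lowered (11.1%, against 3.22%). Beside KLHL21 and KLHL14, KLHL24 went from 383 to 906 (1.47), KLHL13 from 1542 to 549 (-1.26) and KLHL8 from 531 to 198 (-1.20). Dual-specificity phosphatases (DUSP) had 3 of 21 raised (14.3%, against 3.79% of all genes) and a median of 0.36. The KRAB and other zinc finger genes named ZNF had 25 of 415 lowered (6.02%, against 3.22%) and 16 raised (3.86%, against 3.79%). Subunits of RNA polymerases (POLR) had 25 of 31 members below 0, a median of -0.30 and 0 lowered genes. METTL methyltransferases had 17 of 21 below 0, a median of -0.36 and 1 lowered gene (4.76%, against 3.22%). These families were singled out after their values were seen.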
